A study of Jatropha curcas with 4 samples.

Results

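The gene models described here are called switched off in Jatropha roots by 24 h of waterlogging, as far as the reads could show. The name stands for the limits below and does not mean that no RNA was left. The models were chosen by their read counts, given as CPM, the reads of a model divided by the summed counts of its library, times 1000000. A model was included if its CPM was under 1 in both waterlogging (WS) libraries and at least 5 in both non-stress (NS) libraries. This held for 110 of the 57437 annotated models, of which 109 are reported. The same reads that chose these models are described below, so their difference between WS and NS is a description and carries no test.

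Jatropha curcas (cv. "Chai Nat") is an oil-seed tree whose roots tolerate flooding poorly. In the WS group, potted plants 30 days old, at the six-leaf stage, stood for 24 h in tap water that reached 3 cm above the soil. In the NS group, plants of the same age were kept for 24 h in a container without water. Poly(A) RNA of whole roots was sequenced in 2 libraries per treatment, described by the study as independent biological replicates, and the reads were assigned to the models of genome release 4.5.

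Roots take up oxygen from air-filled pores in the soil, and flooding fills these pores with water. Roots under low oxygen are known to save energy by making less of the cell wall, protein and DNA needed for growth, while transcripts of glycolysis and fermentation accumulate. In bulk root libraries, fewer cells of a type and less RNA per cell cannot be told apart.

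The summed counts were 4143491 and 2531520 in WS 1 and WS 2, and 6110438 and 1204502 in NS 1 and NS 2. The limit of 1 CPM therefore allowed at most 4 reads in WS 1 and 2 reads in WS 2, and the minimum of 5 CPM required at least 31 reads in NS 1 and 7 reads in NS 2. A count of 0 allows up to 3 reads, which is 0.724 CPM in WS 1 and 1.19 CPM in WS 2, so an empty WS 2 cell does not by itself show a level under 1 CPM. These floors, and all intervals given, cover counting error only. Across the series 760 of 17410 tested models passed an adjusted p of 0.05 in edgeR's quasi-likelihood test, 427 of them up-regulated and 333 down-regulated, and with either NS library left out none passed. The median log2 fold change of all tested models was 0.01 with TMM scaling and -0.22 with total library size. Photosynthesis and tetrapyrrole genes served as a sign of green tissue. None of the 10 tested passed the test in either direction, beside 4.37% of all tested models. No markers of root cell types were at hand, so the labelled tissue was not checked by markers.

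Few of the models read in both NS libraries fell below the WS limit. Of the 11527 models with at least 5 CPM in both NS libraries, 110 (0.954%) were under 1 CPM in both WS libraries and 11037 (95.7%) were at or above it in both. A further 242 models (2.10%) were under 1 CPM in WS 1 only and 138 (1.20%) in WS 2 only. In the opposite direction, 69 of the 11073 models with at least 5 CPM in both WS libraries (0.623%) were under 1 CPM in both NS libraries. Without WS 1, WS 2, NS 1 and NS 2, 247, 351, 291 and 215 models met the remaining limits, each time with all 109 among them. Leaving out a library removes a condition, so this count could only rise.

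Together the 109 models held 180 reads in WS 1 and 84 reads in WS 2, against 10107 in NS 1 and 2525 in NS 2. As summed CPM this was 43.4 and 33.2 in the WS libraries and 1654 and 2096 in the NS libraries. The median model was at 0.483 CPM in WS 1 and 0.395 CPM in WS 2, and at 10.1 CPM in NS 1 and 14.1 CPM in NS 2. The values did not overlap between the treatments, which the limits themselves require. The highest NS values were 137 CPM in NS 1 and 101 CPM in NS 2.

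**Figure D1:**
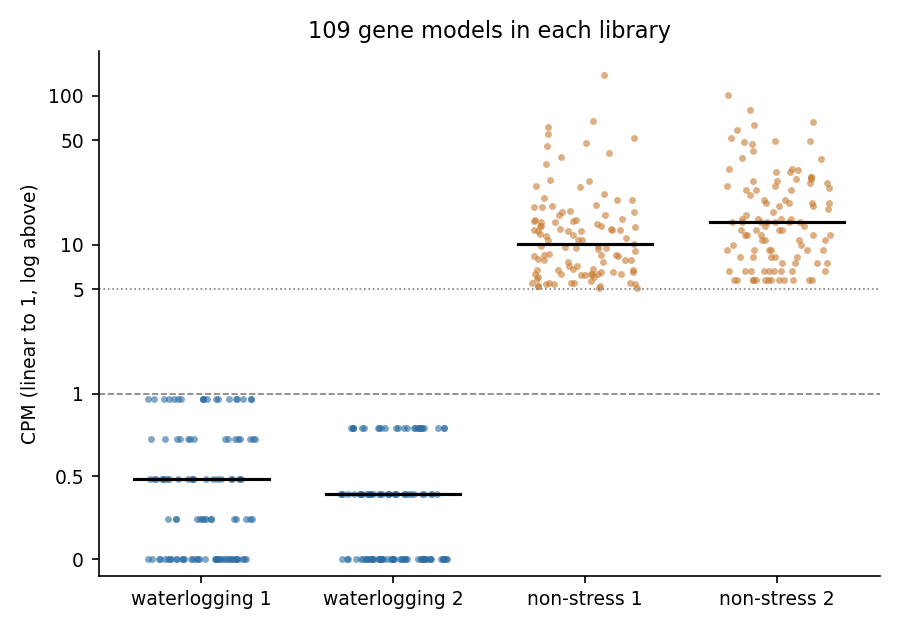
CPM of the 109 gene models in each library, with 1 point per model, a black line at the median, and dashed and dotted lines at the limits of 1 and 5 CPM (the axis is linear up to 1 and logarithmic above). The WS points lie in a few rows because they stand for 0 to 4 reads, with medians of 0.483 and 0.395 CPM, whereas the NS points spread up to 137 and 101 CPM.

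An annotation entry was at hand for 2 of the 109 models, and only 1 of them holds a match to a gene of another plant. Jcr4S00017.70 best matched the Arabidopsis subunit 1b of the origin recognition complex, the protein assembly that marks where DNA replication starts and on which the replicative helicase is loaded before each S phase. It had 3 and 2 reads in the WS libraries, against 102 and 32 reads in the NS libraries. This was 0.724 and 0.790 CPM in WS roots and 16.7 and 26.6 CPM in NS roots, with NS roots averaging 21.6 ± 6.98 CPM (SD, n = 2). Over the pooled reads, the WS level was 4.09% of the NS level (exact 95% counting interval 1.31% to 9.78%). The model lies on the plus strand of scaffold Jcr4S00017 from 35881 to 41028, and with 16 coding exons over 2463 bp it was among the most exon-rich of the switched-off models.

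The annotation rows at hand hold only some of the genes of DNA synthesis and chromatin structure. Of the 10 tested, none was up-regulated and 1 was down-regulated, beside 2.45% and 1.91% of all tested models. The down-regulated one was Jcr4S00017.70 itself, chosen on these reads. Its call was lost with limma voom (adjusted p = 0.0602), in edgeR at equal depth (0.0961) and in edgeR without WS 1 (0.0644), and over its alternatives the adjusted p ranged from 0.000466 to 0.0961. The other 9 had a median log2 fold change of 0.33, beside 0.01 over all tested models, and 4 of them were below 0. The nearest to it in the class was Jcr4S00007.380, a match to a DNase I-like protein, named here after its values were seen. It had 3 and 8 reads in WS roots, against 107 and 29 reads in NS roots, and missed the WS limit through WS 2 alone (3.16 CPM). Its log2 fold change of -3.23 did not pass the test (adjusted p = 0.112, edgeR; 0.0163 to 0.424 over the alternatives, under 0.05 without a filter, with the likelihood ratio test, DESeq2 or the replicate block, and without WS 2). Of the 8 tested models in the cell division class, none passed, beside 4.37% of all tested models in either direction. With so few models, nothing is read from the counts of either class.

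The second model with an entry, Jcr4S00002.500, was given no match to another species there, and no search was made here. It is a single-exon model of 252 coding bp on the plus strand of Jcr4S00002 (276711 to 276962) that the annotation marks as short. It had 2 reads in each WS library, against 48 and 34 reads in the NS libraries, and its NS values were 3.59-fold apart (7.86 and 28.2 CPM). None of the 129 genes at hand of the AP2/ERF family, the transcription factors that include the low-oxygen regulators of group VII, was switched off, but only 29 of them reached 5 CPM in both NS libraries, where the share over all such models was 0.954%. Of 62 tested AP2/ERF genes, 11 were up-regulated and 1 was down-regulated, beside 2.45% and 1.91% of all tested models, with a median log2 fold change of 1.18. For the other 107 switched-off models no name or function was at hand, so they are described by their reads, their structure and their position.

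Jcr4S01457.10 had the most NS reads of the switched-off models. It had 4 and 0 reads in WS 1 and WS 2, against 836 and 122 reads in NS 1 and NS 2, and NS roots averaged 119 ± 25.1 CPM (SD, n = 2). Over the pooled reads its WS level was 0.458% of the NS level (exact 95% interval 0.124% to 1.18%), the lowest share among the models with any WS read. It is a model of 2 coding exons and 1509 coding bp on the plus strand of Jcr4S01457 (6430 to 8025).

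Jcr4S07275.10 came next by reads, with 1 read in each WS library, against 415 and 63 reads in the NS libraries. Its NS values of 67.9 and 52.3 CPM averaged 71.3 CPM per coding kb, close to the 78.9 of Jcr4S01457.10. The WS share was 0.458% (0.0554% to 1.67%). Both models kept only scattered WS reads although their NS libraries were close to each other.

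A similarly steady NS level was seen in 3 further models named for their NS reads, each with 5 coding exons. Other switched-off models with 5 coding exons were less steady, such as Jcr4S02595.30 with NS libraries 2.84-fold apart. Jcr4S00504.10 had 3 and 0 reads in WS roots, against 315 and 51 reads in NS roots (51.6 and 42.3 CPM). Jcr4S00480.70 had 2 and 2 reads in WS roots, against 294 and 60 reads in NS roots (48.1 and 49.8 CPM). Jcr4S01792.30, which the annotation marks as partial, had 4 and 2 reads in WS roots, against 282 and 57 reads in NS roots (46.2 and 47.3 CPM). In Jcr4S00504.10, Jcr4S00480.70 and Jcr4S01792.30 the NS libraries were no more than 1.22-fold apart. The WS level was 0.898%, 1.24% and 1.94% of the NS level.

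Other models with many NS reads differed between the NS libraries. Jcr4S04217.10, with 12 coding exons, had 2 and 0 reads in WS roots, against 378 and 17 reads in NS roots (61.9 and 14.1 CPM). Jcr4S00219.10, with 8 coding exons, had 4 and 1 reads in WS roots, against 336 and 24 reads in NS roots (55.0 and 19.9 CPM). Jcr4S02179.10, with 2 coding exons, had 0 and 1 reads in WS roots, against 151 and 71 reads in NS roots (24.7 and 58.9 CPM). In the first pair NS 1 was higher and in the last model NS 2 was higher.

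Small models reached high levels per length, where the same CPM gives a higher value per kb. Jcr4S13535.10, a partial model of 414 coding bp at the start of its scaffold, had 2 and 0 reads in WS roots, against 252 and 77 reads in NS roots, and its NS level of 127 CPM per coding kb was the highest of the 109. Jcr4S22003.30, a single exon of 312 bp, had 4 and 2 reads in WS roots, against 236 and 23 reads in NS roots (92.5 CPM per coding kb in NS roots). Jcr4S00472.140, a single exon of 444 bp, had 3 and 1 reads in WS roots, against 211 and 16 reads in NS roots (53.8 CPM per coding kb in NS roots). These compare with a median of 15.6 CPM per coding kb in NS roots over the 109 models.

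No read was found in either WS library for 21 of the models. They had 47 to 196 reads over both NS libraries, which places their WS level at least 7.50-fold to at least 44.3-fold lower, with a median bound of 12.1-fold, when 3 reads are allowed in each WS library. They had a median of 4 coding exons and 924 coding bp, beside 4 and 942 over the 109, and 18 of the 21 carried no note. The remaining 88 models kept 1 to 6 WS reads in sum. There were 29 with reads in WS 1 only, 17 with reads in WS 2 only and 42 with reads in both. Over the pooled reads, the WS level of these 88 was 0.458% to 11.2% of the NS level, with a median of 3.36%. The highest share was that of Jcr4S01494.10 (exact 95% counting interval 2.92% to 31.2%), with a fitted log2 fold change of -2.94.

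Among the empty models, Jcr4S00208.210 had the most NS reads, 165 and 31 (27.0 and 25.7 CPM), so that its level was at least 27.6-fold lower in WS roots. This single-exon model of 1449 bp lies on the plus strand of Jcr4S00208 (92817 to 94265). Jcr4S03322.10 had 111 and 80 NS reads (18.2 and 66.4 CPM), which gave the largest bound of at least 44.3-fold lower, although this bound rests mainly on NS 2. The NS libraries of the first model were 1.05-fold apart and those of the second 3.66-fold apart.

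The next empty models by NS reads had smaller bounds. Jcr4S00587.160 had no WS read, against 82 and 32 NS reads, and was at least 20.9-fold lower in WS roots. Jcr4S10688.40 had no WS read, against 84 and 30 NS reads, and was at least 20.2-fold lower. Jcr4S01493.80 had no WS read, against 86 and 11 NS reads, and was at least 12.2-fold lower. Jcr4S16853.10 had no WS read, against 97 and 7 NS reads, and was at least 11.4-fold lower, with NS 2 exactly at the 7 reads that the limits require.

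The median ratio of WS to NS mean CPM over the 109 models was -4.83 on the log2 scale, with the empty models placed at their bounds. In the fit over all tested models the median log2 fold change was -4.95, in which the values of the empty models depend on the prior count. The fit placed 40 of the 109 (36.7%) past the threshold, beside 1.91% of all tested models called down-regulated. None was called up-regulated, beside 2.45% of all tested models. As the limits used the same reads, nothing is read from these shares. The 40 models had 75 to 958 NS reads (median 145.5) and the other 69 had 39 to 127 (median 63.0). Under DESeq2 79 of the 109 were past the threshold beside 5.08% of all, under edgeR's likelihood ratio test 103 beside 6.25%, and in edgeR at equal depth 9 beside 1.01%.

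**Figure D2:**
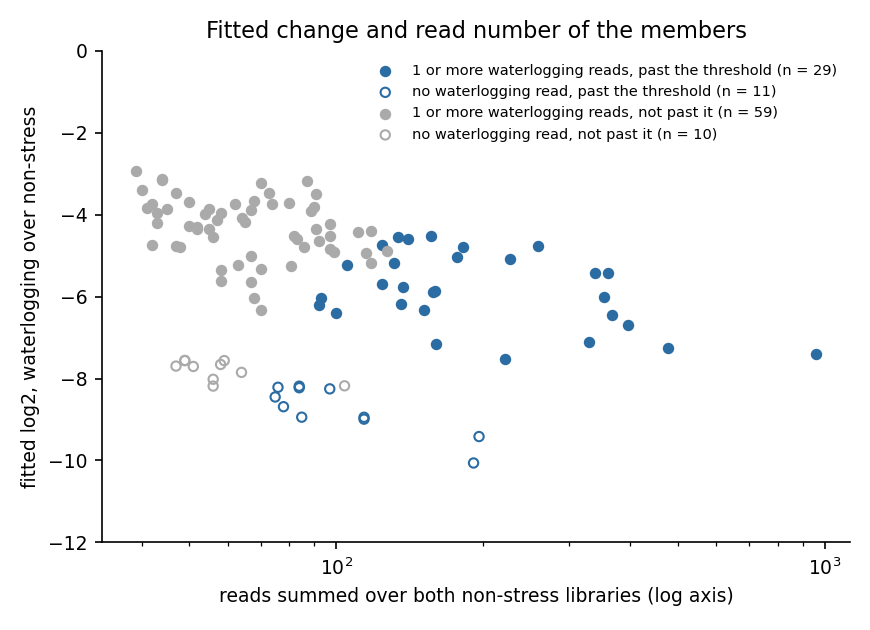
Fitted log2 fold change of WS over NS (vertical axis) against the reads summed over both NS libraries (horizontal log axis) for each of the 109 gene models, with open circles for models with no WS read and blue for models past an adjusted p of 0.05. The blue models begin at 75 NS reads and reach 958, and the grey ones end at 127. The open circles below -7 are set by the prior count and are not bounds.

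The limits passed through a continuum of low counts. Just inside on the WS side, Jcr4S01457.10 and Jcr4S00219.10 were at 4 reads in WS 1, as were 19 models in all, and 25 models were at 2 reads in WS 2, with 7 at both limits. Just outside, Jcr4S03783.80 had 4 and 3 reads in WS roots, against 275 and 54 reads in NS roots. Jcr4S00609.90 had 1 and 3 reads in WS roots, against 180 and 20 reads in NS roots. They were among 23 models that reached 1.19 CPM through a single read more in WS 2.

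On the NS side, Jcr4S01523.30 had 0 and 1 reads in WS roots, against 31 and 39 reads in NS roots, and stood just inside at 5.07 CPM in NS 1. Just outside, Jcr4S07160.10 had 2 and 0 reads in WS roots, against 56 and 6 reads in NS roots. Jcr4S00384.10 had 3 and 1 reads in WS roots, against 50 and 6 reads in NS roots. Both fell short at 4.98 CPM in NS 2, by 1 read. A band of 50 models lay between 1 and 1.5 CPM in the higher WS library, and 46 lay between 4 and 5 CPM in the lower NS library.

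Within NS roots the switched-off models were low and uneven. Their mean NS CPM had a median of 12.1 (range 5.52 to 119). Per coding kb their median was 15.6 CPM, against 31.8 CPM for the 11527 models with at least 5 CPM in both NS libraries. The ratio of NS 2 to NS 1 had a median log2 of 0.33 in the switched-off models and 0.03 in the 11527, and 39 of the switched-off models (35.8%) against 21.9% of the 11527 were more than 2-fold apart. No test was run on these differences, and the part of low read numbers in them was not tested.

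The widest gaps were in models that were high in NS 2, the shallowest library. Jcr4S11972.50, a single-exon model of 684 bp, had 2 and 2 reads in WS roots, against 62 and 97 reads in NS roots (10.1 and 80.5 CPM), a 7.94-fold gap between the NS libraries. Jcr4S01523.30, described above, had a 6.38-fold gap (5.07 and 32.4 CPM). Jcr4S04617.10, with 7 coding exons, had 4 and 2 reads in WS roots, against 34 and 33 reads in NS roots (5.56 and 27.4 CPM), a 4.92-fold gap. All 3 were higher in NS 2.

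**Figure D3:**
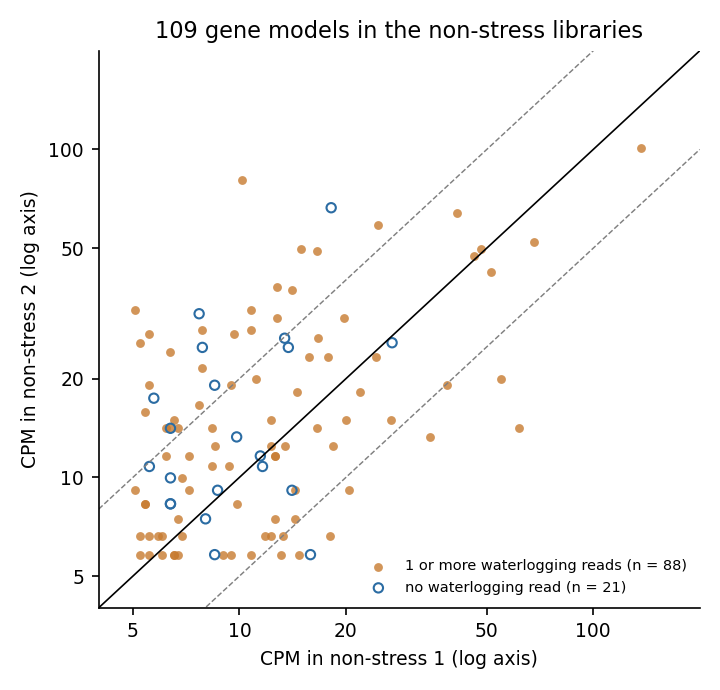
CPM in NS 2 against CPM in NS 1 for the 109 gene models on log axes, with the solid line at equality and dashed lines at a 2-fold difference, and open blue circles for the 21 models with no WS read. Outside the dashed lines lie 39 models. Higher in NS 2 were 68 of the 109 (62.4%), against 51.4% of the 11527 models with at least 5 CPM in both NS libraries, without a test.

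The switched-off models had shorter medians than both wider sets, except for exon number. Their median was 4 coding exons, as in all tested models, against 5 for the 11527 models with at least 5 CPM in both NS libraries. The median coding length was 942 bp, against 1047 bp over all tested models and 1179 bp over the 11527. The median span on the scaffold was 1797 bp, against 2293 bp and 2772 bp in those sets. Single-exon models made up 20 of the 109 (18.3%), against 16.2% of all tested models and 12.5% of the 11527. Models with 10 or more coding exons numbered 13 (11.9%), against 19.9% and 25.2%. The 69 models switched the other way had a median of 2 coding exons and 645 coding bp, and 33.3% had a single coding exon. These are counts over models without a test, and neither set was matched for expression level.

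**Figure D4:**
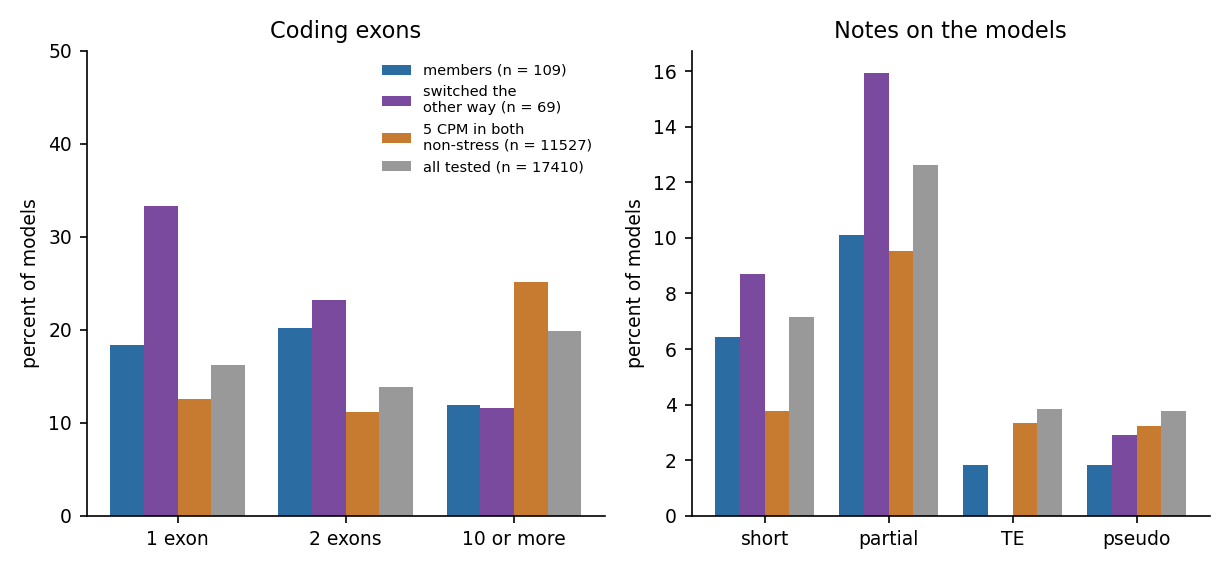
Percent of models with 1, 2 or at least 10 coding exons (left) and with each annotation note (right) for the 109 switched-off models, the 69 switched the other way, the 11527 with at least 5 CPM in both NS libraries and all 17410 tested. The bar for 10 or more exons is 11.9% in the switched-off models, against 25.2% in the 11527 and 19.9% of all tested.

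Per coding length, single-exon models stood above exon-rich ones in NS roots, without a test. The minimum of 5 CPM itself requires a higher level per kb of a shorter model, so nothing is read from this about exon number. The 20 single-exon models had a median of 22.2 CPM per coding kb in NS roots. Their median coding length was 511.5 bp, and their median NS level before division by length was 16.8 CPM. The 13 models with 10 or more coding exons had a median of 7.09 CPM per coding kb in NS roots. For these the median coding length was 1629 bp and the median NS level 10.1 CPM. No WS read was found for 3 of the single-exon models and for 1 of the exon-rich ones. Next to the origin recognition subunit, the most exons were in Jcr4S00892.60 with 16 and Jcr4S00960.90 with 15. Jcr4S00892.60 had 2 and 1 reads in WS roots, against 32 and 8 reads in NS roots. Jcr4S00960.90 had 4 and 2 reads in WS roots, against 48 and 26 reads in NS roots.

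The 3 longest coding sequences are described next, with levels divided by that length. Jcr4S01782.40, of 3180 coding bp, had 1 and 1 reads in WS roots, against 32 and 31 reads in NS roots (4.87 CPM per coding kb in NS roots). Jcr4S01721.10, a partial model of 3134 coding bp, had 4 and 2 reads in WS roots, against 80 and 7 reads in NS roots (3.02 CPM per coding kb in NS roots). Jcr4S07001.10, of 2964 coding bp, had 1 and 1 reads in WS roots, against 34 and 7 reads in NS roots, and its NS level of 1.92 CPM per coding kb was the lowest of the 109. These 3 models thus rested on 41 to 87 NS reads.

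Most of the switched-off models carried none of the annotation's notes on doubtful models. No note was attached to 90 of them (82.6%), against 79.3% of all tested models and 84.4% of the 11527 models with at least 5 CPM in both NS libraries. The note partial was on 11, short on 7, TE (the usual abbreviation of transposable element) on 2 and pseudo on 2, and a model can carry several. Of the TE models, Jcr4S01808.60 had 2 and 0 reads in WS roots, against 90 and 7 reads in NS roots, and the other was Jcr4S01782.40. Of the pseudo models, Jcr4S04441.30 had 4 and 1 reads in WS roots, against 51 and 17 reads in NS roots. Jcr4S01089.10 had 4 and 0 reads in WS roots, against 40 and 18 reads in NS roots. The sources used here do not say how reads that match several copies were counted, and the values of such copies are uncertain.

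The switched-off models lay on 108 scaffolds, with 46 of the models on the plus strand, and none overlapped another model. All 17410 tested models lay on 6615 scaffolds, with 8847 of them on the plus strand. Of the switched-off models, 14 were alone on their scaffold, and 28 had no other tested model there that was not switched off. Positions were given only within scaffolds, so nothing is read from these counts about scatter over the genome. A single pair was found within 20 kb. Jcr4S00062.170 (123760 to 124979) and Jcr4S00062.180 (129450 to 130644) lie on the minus strand of scaffold Jcr4S00062, 4470 bp apart with no model between them, and both have 3 coding exons over 969 and 942 bp. Jcr4S00062.170 had 0 and 1 reads in WS roots, against 101 and 59 reads in NS roots (16.5 and 49.0 CPM). Jcr4S00062.180 had 3 and 0 reads in WS roots, against 31 and 11 reads in NS roots (5.07 and 9.13 CPM). Both models of the pair were higher in NS 2 than in NS 1, and whether they are copies of each other could not be checked without their sequences.

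The nearest tested models that were not themselves switched off were taken as neighbours, so the set holds no model that met the limits. Such a neighbour within 10 kb was found for 76 of the 109, 75 distinct models at a median gap of 2106 bp. Their median log2 fold change was 0.01 (SD 1.87), against 0.01 (SD 1.79) over all tested models, and 37 of the 75 were below 0. Of the 75, 3 were up-regulated and 3 down-regulated, beside 4.37% of all tested models called in either direction. On the same strand the median was -0.21 over 39 neighbours and on the opposite strand 0.06 over 36, which was not tested. When switched-off models were also allowed, an alternative chosen after seeing the data, the pair on Jcr4S00062 became neighbours of each other. The median over 76 neighbours was then -0.02 (SD 2.03), with 4 down-regulated and the lowest at -7.17.

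The up-regulated neighbours were picked for their call, and the limits hold the models beside them under 1 CPM in WS roots. The contrast within each pair therefore follows from the choice and is only described. The models beside neighbours are named for that position, after their values were seen. Jcr4S08627.40 had 1451 and 394 reads in WS roots, against 19 and 0 reads in NS roots, a mean of 253 ± 138 CPM in WS roots and 1.55 ± 2.20 CPM in NS roots (SD, n = 2 each; log2 fold change 7.09, adjusted p = 0.00503, edgeR). It lies 1734 bp from Jcr4S08627.30 on the same strand, which had 0 and 1 reads in WS roots, against 66 and 34 reads in NS roots. Jcr4S00496.60 had 607 and 170 reads in WS roots, against 13 and 1 reads in NS roots, a mean of 107 ± 56.1 CPM in WS roots and 1.48 ± 0.917 CPM in NS roots (SD, n = 2 each; log2 fold change 6.14, adjusted p = 0.00396, edgeR). It lies 459 bp from Jcr4S00496.50 on the opposite strand, which had 1 and 1 reads in WS roots, against 75 and 8 reads in NS roots. In both neighbours, picked as up-regulated, every WS value was above every NS value. The share of all tested models with such an order was not counted, so nothing is read from it.

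Jcr4S00504.20, named after its values were seen, had 11782 and 9442 reads in WS roots, against 996 and 153 reads in NS roots. This was a mean of 3287 ± 627 CPM in WS roots and 145 ± 25.4 CPM in NS roots (SD, n = 2 each; log2 fold change 4.73, adjusted p = 0.00292, edgeR). It lies 1089 bp from Jcr4S00504.10 on the same strand, which had 3 and 0 reads in WS roots, against 315 and 51 reads in NS roots. The adjusted p of these 3 neighbours exceeded 0.05 in the fits without NS 1 (0.102 to 0.113) and without NS 2 (0.110 to 0.124), in which no model of the series passed. Over the other alternatives it ranged from 2.37e-30 to 0.0164.

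Of the down-regulated neighbours, all named after their values were seen, Jcr4S00357.50 had 64 and 92 reads in WS roots, against 1419 and 297 reads in NS roots (log2 fold change -2.99, adjusted p = 0.0173, edgeR). Jcr4S01494.20 had 66 and 100 reads in WS roots, against 868 and 278 reads in NS roots (-2.53, adjusted p = 0.0410, edgeR). Jcr4S01534.80 had 1786 and 1461 reads in WS roots, against 10402 and 3290 reads in NS roots (-1.90, adjusted p = 0.0497, edgeR). Jcr4S01534.80 missed the threshold with RLE scaling (adjusted p = 0.0604, edgeR) and upper quartile scaling (0.0597). Jcr4S01534.80 and Jcr4S01494.20 missed it with a filter on the mean count of 10 (0.0648 and 0.0606), with filterByExpr (0.0623 and 0.0557) and equal depth (0.0844 and 0.0800), and all 3 missed it without either NS library. Over all alternatives the adjusted p of the 3 ranged from 1.05e-07 to 0.399. All 3 kept many reads in WS roots, where the limits hold the models beside them to a few reads.

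The lowest neighbours by log2 fold change were 2 thinly read models that did not pass. Jcr4S10688.30 had 0 and 9 reads in WS roots, against 62 and 38 reads in NS roots (log2 fold change -3.39, adjusted p = 0.219, edgeR), and lies 3314 bp from the empty Jcr4S10688.40. Jcr4S00552.160 had 3 and 4 reads in WS roots, against 49 and 17 reads in NS roots (-3.02, adjusted p = 0.190, edgeR), next to Jcr4S00552.170 with 0 and 1 reads in WS roots, against 60 and 10 reads in NS roots. In both neighbours, picked for their low log2 fold change, the NS values exceeded the WS values. How many of all tested models separate in this way was not counted, so nothing is read from this.

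**Figure D5:**
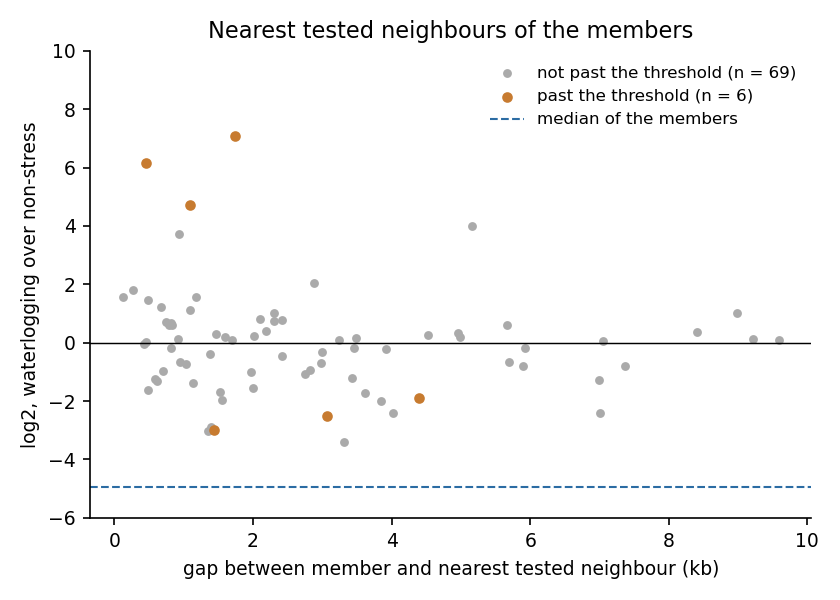
Log2 fold change of WS over NS of the 75 nearest tested neighbours within 10 kb (vertical axis) against their gap to the switched-off model (kb), with orange for the 6 past an adjusted p of 0.05 and a dashed line at the median of the switched-off models, -4.95. The neighbours scatter around a median of 0.01 between -3.39 and 7.09 (switched-off models were not counted as neighbours).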

How the data were processed

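The authors sequenced poly(A) RNA on an Ion Proton instrument, mapped the reads with TMAP to genome release 4.5 and counted them per model with HTSeq, and deposited raw counts of 57437 models for 4 libraries. HTSeq and edgeR appear in the submitters' processing notes. Their versions, and the use of strand in counting, are not given in the sources used here. A deposited comparison (fold changes and p-values) was not used.

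CPM used the summed counts of each library. The test across models was edgeR 4.0.16 in R 4.3.3 (quasi-likelihood, two-sided, TMM) on the 17410 models that 2 or more libraries held at 1 CPM or above, with Benjamini-Hochberg adjustment over all of them and a threshold of 0.05. All 109 models passed this filter. The fit was also run on simulated data with 200 changed models. These had a single dispersion and changes smaller than the median change of the switched-off models, so nothing is read from that run here. The p-values of the fit to the data measure the spread between 2 libraries per treatment. Intervals are exact 95% intervals of pooled reads. limma 3.58.1 and DESeq2 1.42.0 served as alternatives, with other scalings, filters and limits, equal depth, a replicate block and each library left out. Summaries used Python 3.11.15 (scipy 1.17.1, numpy 2.4.6, pandas 2.3.3) and figures used matplotlib 3.10.9.

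Coding exons, lengths, strand, notes and positions came from the deposited annotation, and the deposited gene length equalled end minus start. Descriptions came from 665 rows at hand of the study's supplementary annotation. The RefSeq table matched 0 of the model IDs, so no sequence is shown. Named models were the described ones, the 12 with the most NS reads, the 6 of these among models with no WS read, those nearest the limits, with the most exons or longest coding length, in a close pair, with the widest NS gap, with the note TE or pseudo, and 4 neighbours with extreme fold changes. The models and lists were chosen with earlier results of these data known. One further model that met the limits is not reported here.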

Additional observations from a re-analysis of the deposited data

How the results depend on the processing

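The number of switched-off models was 109. It became 214 and 42 with an NS minimum of 3 and 10 CPM, 59 and 256 with a WS limit of 0.5 and 2 CPM, and 21 when no WS read was allowed. Leaving out each library, which removes a condition, gave 215 to 351 with all 109 among them. It was 85 with TMM-scaled and 79 with RLE-scaled library sizes, all of them among the 109. At equal depth, from a single random draw of the reads of each library, it was 128, of which only 78 were among the 109. The parts of depth and of the random draw in this change were not tested.

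The number of down-regulated models, 333, became 997 without a filter, 1088 with the likelihood ratio test, 816 with DESeq2 and 172 at equal depth, and 0 to 1237 with a library left out. The count of 0 came without NS 1 or NS 2, where 2926 and 1823 models had an unadjusted p under 0.05. Of the switched-off models, 40 were called. This became 72 without a filter, 103 with the likelihood ratio test, 79 with DESeq2, 9 at equal depth, and 35 to 49 with a WS library left out. Without an NS library no value could be given, since none of these models then reached 1 CPM in 2 libraries. With the replicate number as a block, 882 models were down-regulated, among them 56 switched-off ones. Same-numbered libraries deviated together only weakly (correlation 0.0913). The labels give them only a number in common and do not say whether they share a growing season. Where 1 library was left in a treatment, it was assumed to vary like those of the other.

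None of the 48 models followed by name changed direction, with 551 values on the same side of the threshold, 49 newly past it and 46 no longer past it. The limits fix the direction of the switched-off models, and the others were named for lying near the limits or for their values. Nothing is therefore read from the unchanged direction. The cause of these shifts was not tested. Depth set the resolution, as 1 read was worth 0.395 CPM in WS 2 and 0.830 CPM in NS 2.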
